A study of Mus musculus with 34 samples.

Results

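The genes described here encode the respiratory chain and the ATP synthase. They were chosen by symbol, as genes listed in both expression tables whose names begin with Nduf followed by a, b, c, s or v, are Sdha to Sdhd, or begin with Uqcr, Cox4 to Cox8, Atp5 or the mitochondrial mt-Nd, mt-Co, mt-Cytb and mt-Atp. The rule found 106 of the 32098 genes listed. Of these, 93 are encoded in the nucleus and 13 in the mitochondrial genome. The nuclear genes comprised 38 of complex I, 8 Ndufaf genes of complex I assembly, 4 of complex II, 8 of complex III, 18 of complex IV and 17 of complex V, whereas the mitochondrial genome gave 7 genes of complex I, 1 of complex III, 3 of complex IV and 2 of complex V. Complex II has no gene in the mitochondrial genome. Complexes were assigned by gene name, so Ndufa4, which is known as a subunit of complex IV, and its relative Ndufa4l2 stand among the complex I genes. All 106 members passed the filter on low values at 8 and 20 weeks, and 104 passed it at 34 weeks.

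RNA was sequenced from the stromal vascular fraction (SVF), the cells that pellet after collagenase digestion of visceral white adipose tissue and after lysis of erythrocytes. The donors were male C57BL/6J mice that received a control diet (CHOW, D12450B or D12450K) or a high fat diet (HFD) with 60% of its energy from fat, in both cases from 6 weeks of age, and that were fasted for 6 hours before collection. The 34 libraries fell into CHOW (n = 4) and HFD (n = 6) at 8 weeks of diet, CHOW (n = 5) and HFD (n = 6) at 20 weeks, and CHOW (n = 7) and HFD (n = 6) at 34 weeks. The 21 libraries at 8 and 20 weeks form one table and the 13 at 34 weeks another, so levels were compared only within a table.

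The respiratory chain passes electrons from NADH and succinate to oxygen through complexes I to IV and pumps protons across the inner mitochondrial membrane, and complex V uses the returning protons to make ATP. Complexes I, III, IV and V are mosaics, with a catalytic core partly made inside the mitochondrion from its own genome and many further subunits made in the cytosol and imported. Several subunits of complex IV also exist as paired isoforms with their own tissues, such as testis, lung, or muscle and brown fat. Macrophages, fibroblasts, endothelial cells and mesothelial cells of the SVF all carry mitochondria.

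Values are TPM, a share of transcripts corrected for their length and scaled so that each library sums to 1000000. All differences are on the scale of log2(TPM + 1), from limma fitted to every gene that passed the filter, with p-values adjusted over all genes tested by the Benjamini-Hochberg method and a threshold of 0.05. Because each value is a share of one library, a gene can fall in TPM when another gene rises. In a bulk fraction, fewer cells of a type and less RNA per cell cannot be told apart. Nothing in the labels states that libraries of a group came from separate animals, so the p-values measure the spread between these libraries.

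The labelled fraction was checked against its markers, and several libraries stood apart. All 15 macrophage markers were above 0 in every library, and their summed level ranged from 6162 to 29053 TPM. All 20 adipocyte markers were also above 0 in every library, although floating adipocytes had been removed, and Adipoq, the adipocyte hormone adiponectin, ranged from 22.2 to 5439 TPM. The highest Adipoq levels were those of CHOW 34 week replicates 5, 6 and 7, at 1027, 5439 and 1486 TPM. HFD 8 week replicate 3 held 12.3% of its TPM in seminal vesicle genes. Germ cell markers were high in HFD 20 week replicates 3 to 5 and HFD 34 week replicates 1 and 2, where the 15 markers summed to between 2600 and 14257 TPM. Globin genes made up between 0.708% and 26.7% of TPM. TPM keep no read depth, so the depth behind each value is unknown.

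The 13 mitochondrial-genome members held several times more RNA than the 93 nuclear members. In CHOW 8 week libraries the mitochondrial members summed to 7.77%, 8.44%, 6.10% and 9.77% of all TPM, and the nuclear members to 1.23%, 1.20%, 1.43% and 1.19%. In HFD 8 week libraries the mitochondrial share had a lowest, median and highest value of 4.82%, 5.70% and 22.6%, and the nuclear share of 0.885%, 1.25% and 1.40%. The 2 diets overlapped at 8 weeks in both shares. The highest mitochondrial share and the lowest nuclear share belonged to 1 library, HFD 8 week replicate 3, in which the ratio of mitochondrial to nuclear TPM was 25.6 against 3.48 to 7.94 in the other 5 libraries of its group.

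At 20 weeks the CHOW libraries gave mitochondrial shares of 5.70%, 4.39%, 5.12%, 6.08% and 5.30%, and nuclear shares of 1.19%, 1.24%, 1.06%, 0.986% and 0.957%. In HFD 20 week libraries the lowest, median and highest mitochondrial shares were 3.85%, 4.31% and 5.88%, and the nuclear shares 1.21%, 1.27% and 1.39%. The mitochondrial shares overlapped between diets. The nuclear shares overlapped by 1 CHOW library, replicate 2, which lay above the lowest HFD value. The mean ratio of mitochondrial to nuclear TPM was 4.97 ± 0.981 (SD, n = 5) on CHOW and 3.71 ± 0.871 (SD, n = 6) on HFD, with overlapping ranges of 3.54 to 6.16 and 3.02 to 4.87.

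At 34 weeks the mitochondrial share had a lowest, median and highest value of 5.03%, 6.87% and 10.9% on CHOW, and of 5.25%, 6.78% and 8.70% on HFD. The nuclear share had corresponding values of 1.41%, 1.88% and 3.98% on CHOW and 1.49%, 1.60% and 1.93% on HFD. Both shares overlapped between the diets. The 3 highest mitochondrial shares on CHOW, 10.9%, 10.0% and 9.20%, belonged to replicates 5 to 7, the libraries with the highest Adipoq. Without those 3 libraries the mean CHOW shares were 5.71% ± 0.802 and 1.70% ± 0.234 (SD, n = 4), against 6.88% ± 1.28 and 1.64% ± 0.158 (SD, n = 6) on HFD.

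**Figure D1:**
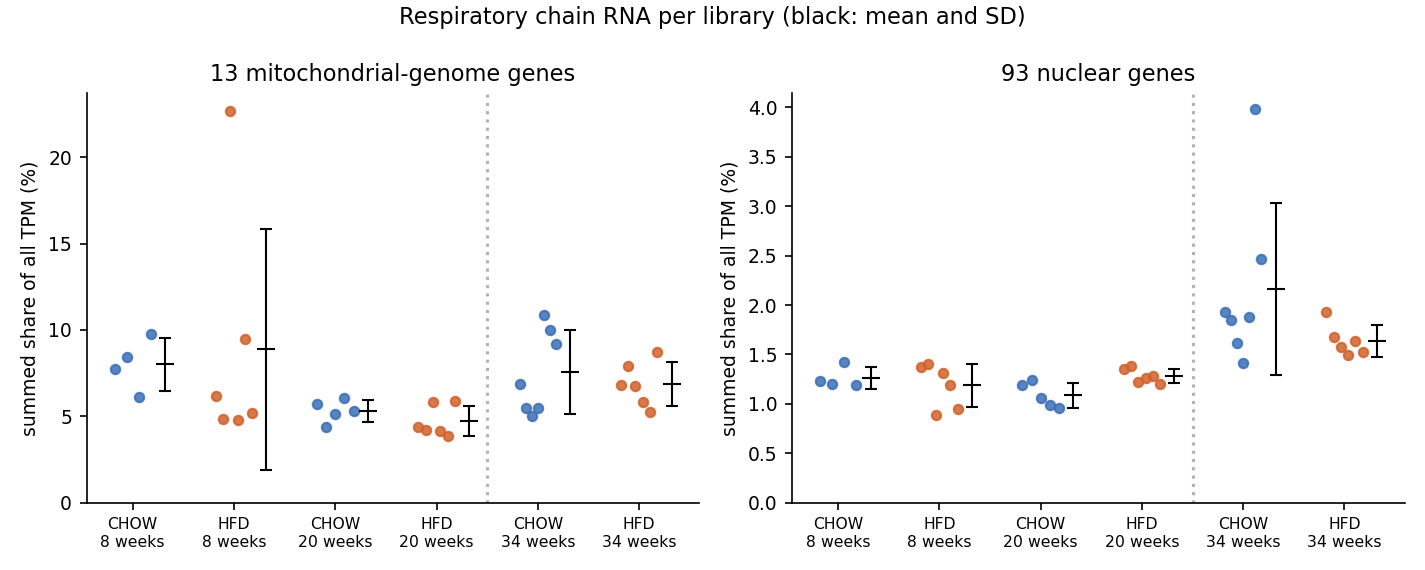
Summed share of all TPM (%) held by the 13 mitochondrial-genome members (left) and the 93 nuclear members (right) in each of the 34 libraries, by diet and weeks, with the mean and SD in black and a dotted line between the tables. One HFD library at 8 weeks reached 22.6% mitochondrial RNA, and 1 CHOW library at 34 weeks reached 3.98% nuclear RNA.

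The position of a nuclear member within TPM depended on what else a library held. HFD 8 week replicate 3 had the lowest nuclear share of all 34 libraries, 0.885%. When the mitochondrial, globin, seminal vesicle and germ cell genes were taken out of the total, its nuclear share was 1.65%, above the 1.40% to 1.55% of the other 5 HFD 8 week libraries. HFD 8 week replicate 6, with 26.7% of its TPM in globin genes, moved from 0.951% to 1.40% on the same basis. The mean nuclear share of this remainder was 1.49% ± 0.0637 (SD, n = 4) in CHOW 8 week, 1.503% ± 0.0937 (SD, n = 6) in HFD 8 week, 1.23% ± 0.0920 (SD, n = 5) in CHOW 20 week and 1.38% ± 0.0622 (SD, n = 6) in HFD 20 week libraries. CHOW 20 week libraries were the lowest of these 4 groups, with a range of 1.12% to 1.34% that overlapped only that of HFD 20 week (1.30% to 1.47%).

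Within the mitochondrial genome the ends of the order were the same in every library. mt-Co1, the catalytic subunit of cytochrome c oxidase, was the highest of the 13 in all 34 libraries, with a median of 20.9% of mitochondrial TPM at 8 and 20 weeks and 23.1% at 34 weeks. mt-Nd6, the only protein gene on the light strand, was the lowest in all 34, at 0.0160% to 0.0386% of mitochondrial TPM at 8 and 20 weeks and 0.0483% to 0.115% at 34 weeks. mt-Nd5, a proton-pumping subunit of complex I, was the lowest of the other 12 genes in every library. Among those 12 the highest gene exceeded the lowest by 8.31-fold to 15.4-fold. mt-Nd6 was thus listed far below the genes of its own complex in these libraries of polyadenylated RNA. Its mean was 14.8 TPM at 8 and 20 weeks, against 3814 TPM for mt-Nd1, the highest complex I gene of the mitochondrial genome. Whether selection of polyadenylated RNA lowered mt-Nd6 was not tested, so its level in the cells is not read from these values.

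mt-Atp8, a small subunit of the membrane part of ATP synthase, varied most in its share of mitochondrial TPM, from 3.495% to 9.56% at 8 and 20 weeks and from 3.25% to 9.84% at 34 weeks. Its reading frame runs into that of mt-Atp6, the proton channel subunit, and the 2 genes are carried on 1 transcript. The shared stretch of 43 bases, at chrM:7927-7969 of GRCm38 on the plus strand, is shown because reads from it belong to both genes, with the start codon of mt-Atp6 in capitals (sequence from the GENCODE M21 transcripts).
mt-Atp8 and mt-Atp6 overlap: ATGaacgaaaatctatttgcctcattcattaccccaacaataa
mt-Nd4l and mt-Nd4 share 7 bases in the same way, at chrM:10167-10173. mt-Nd5 and mt-Nd6 share 14 bases on opposite strands, at chrM:13552-13565, and whether the counting used strand was not given in the sources used here, so mt-Nd6 in particular is an uncertain value.

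**Figure D2:**
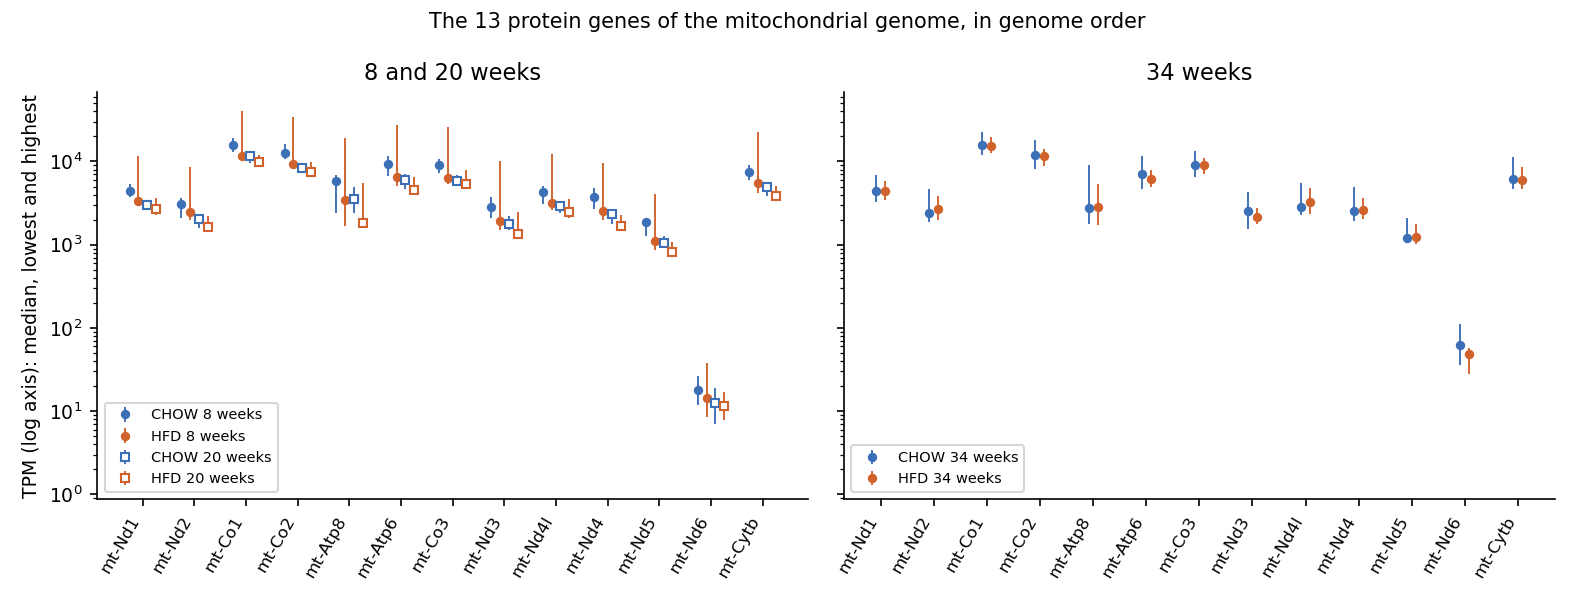
TPM on a log axis of the 13 protein genes of the mitochondrial genome in genome order, with the median as a point and the lowest and highest library as a line for each diet and time. mt-Co1 was highest and mt-Nd6 lowest in every library, and the tall lines of the HFD 8 week group end at HFD 8 week replicate 3.

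The nuclear members spanned a wide range of levels within each complex. At 8 and 20 weeks the highest mean levels were Atp5b (catalytic beta subunit of ATP synthase) at 499 TPM, Cox8a at 439 TPM, Uqcrh (the hinge subunit of complex III) at 394 TPM and Ndufa7 at 215 TPM. The 4 complex II genes lay within 77.6 TPM (Sdhc) and 87.8 TPM (Sdhb), the narrowest range of the 5 complexes among these means. The assembly factors were far lower, from 2.88 TPM for Ndufaf6 to 21.4 TPM for Ndufaf8. The lowest members of the other complexes were Ndufa11 at 14.9 TPM, Uqcrc2 at 68.7 TPM, Cox6a2 at 1.30 TPM and Atp5s at 3.10 TPM, among members that passed the filter in both tables. At 34 weeks the same genes were highest in complexes II to V (Sdhb 166, Uqcrh 590, Cox8a 726 and Atp5b 644 TPM), while Ndufa7 reached 331 TPM in complex I. Ndufa4, a complex IV subunit despite its name, was at 356 TPM.

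Members of the 2 genomes varied in different ways between libraries of the same group. At 8 and 20 weeks the median SD of a member around its group mean was 0.24 for nuclear and 0.52 for mitochondrial members on the log2 scale, against 0.35 for all genes tested. At 34 weeks it was 0.39, 0.46 and 0.38. Across the 21 libraries of the first table, deviations from the group means had a median pairwise correlation of 0.97 among mitochondrial members, 0.56 among nuclear members and -0.47 between the 2 genomes, and across the 13 libraries of the second table of 0.91, 0.83 and 0.51. All values in a library share its total and its cell composition, and these correlations are given as a description.

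HFD and CHOW were first compared at 8 weeks. No member passed the adjusted threshold in limma, where 0.0238% of all genes tested did. At an unadjusted p under 0.05 there were 2 members, both higher on HFD, against a background of 9.7% of all genes. The median difference was -0.10 for the 93 nuclear members and -0.11 for the 13 mitochondrial members, against -0.08 for all genes tested. Under median-ratio scaling these medians were -0.004 for the nuclear and 0.003 for the mitochondrial members. The mitochondrial median was -0.41 without HFD 8 week replicate 3, -0.45 with sample weights and 0.35 with an adipocyte covariate. No direction, and no absence of a difference, is therefore read from these medians.

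The 2 members past the unadjusted threshold at 8 weeks were Cox4i2, the lung and oxygen-responsive isoform of complex IV subunit 4, and Ndufa4l2, an oxygen-responsive relative of Ndufa4. Cox4i2 was at 8.94, 8.32, 1.84 and 7.89 TPM on CHOW, and on HFD its lowest, median and highest values were 7.93, 15.9 and 30.8 TPM. The HFD libraries 1, 2 and 4 held 30.8, 21.2 and 25.5 TPM and lay above every CHOW library, while replicate 3 lay inside the CHOW range and replicates 5 and 6, at 9.73 and 10.6 TPM, just above it. The difference was 1.25 ± 0.46 (SE; limma adjusted p = 0.36). Ndufa4l2 was at 19.9, 19.8, 2.93 and 11.7 TPM on CHOW and at 10.47, 28.3 and 39.5 TPM (lowest, median, highest) on HFD, with overlapping groups. Its difference was 1.07 ± 0.42 (SE; limma adjusted p = 0.41). CHOW 8 week replicate 3 was the lowest library for both genes.

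At 20 weeks the median difference was above 0 for the nuclear members and below 0 for the mitochondrial members. The difference was above 0 for 92 of the 93 nuclear members, with a median of 0.25, and below 0 for all 13 mitochondrial members, with a median of -0.21. Over all genes tested 57.4% of differences were above 0, with a median of 0.08. The nuclear medians by complex lay close together, at 0.25 for complex I, 0.19 for its assembly factors, 0.25 for complex II, 0.27 for complex III, 0.26 for complex IV and 0.25 for complex V. No scaling alternative changed either direction, and the nuclear median was between 0.16 and 0.18 and the mitochondrial median between -0.27 and -0.15 under them. With macrophage markers as a covariate both directions changed, to -0.07 and 0.40. With adipocyte markers only the mitochondrial direction changed, with medians of 0.14 and 0.30. With germ cell markers neither changed, with medians of 0.21 and -0.09. Members vary together between libraries, with median correlations of 0.97 (mitochondrial) and 0.56 (nuclear). The counts of signs are therefore not independent observations.

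In limma 9 of the 106 members passed the threshold at 20 weeks, all of them nuclear and higher on HFD. Among them, Cox8c and Cox7b2 met the filter on low values through the HFD 20 week libraries, as described below. The background was 14.3% of all genes tested for a call in either direction and 9.32% for a call higher. At an unadjusted p under 0.05 there were 29 members, again all nuclear and all higher, where the background was 30.5% of all genes and 20.3% of all genes for higher ones. These counts do not set the members apart from other genes. No mitochondrial member was called (0 of 13, and 0 at an unadjusted p under 0.05 by limma).

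Atp5k, subunit e of ATP synthase, which joins the enzyme into dimers, was at 174, 167, 145, 118 and 126 TPM on CHOW at 20 weeks, and its lowest, median and highest HFD values were 192, 218 and 254 TPM. The groups did not overlap, and the difference was 0.59 ± 0.15 (SE; limma adjusted p = 0.014). Ndufb8, an accessory subunit of the membrane arm of complex I, was at 128, 132, 118, 109 and 85.7 TPM on CHOW and at 145, 165 and 187 TPM (lowest, median, highest) on HFD. These groups did not overlap either, with a difference of 0.54 ± 0.15 (SE; limma adjusted p = 0.021). Sdhb, the iron-sulfur subunit of succinate dehydrogenase, was at 83.4, 87.6, 74.4, 62.2 and 57.4 TPM on CHOW and at 93.4, 100.2 and 119 TPM on HFD. All 6 HFD libraries lay above all 5 CHOW libraries, and the difference was 0.51 ± 0.15 (SE; limma adjusted p = 0.027).

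Ndufa13, a complex I subunit also known as GRIM-19, was at 81.3, 81.2, 64.7, 59.9 and 56.2 TPM on CHOW and at 84.0, 95.5 and 108 TPM on HFD, with no overlap and a difference of 0.50 ± 0.17 (SE; limma adjusted p = 0.045). Cox5a, a nuclear subunit of complex IV, was at 145, 197, 121, 130 and 115 TPM on CHOW and at 170, 203 and 246 TPM on HFD. CHOW replicate 2 lay within the HFD range, and the difference was 0.56 ± 0.18 (SE; limma adjusted p = 0.043). Ndufs5 (0.45 ± 0.14, limma adjusted p = 0.035) and Ndufab1, the mitochondrial acyl carrier protein (0.41 ± 0.14, limma adjusted p = 0.048), also had 1 or more CHOW libraries inside the HFD range. Non-overlap is described here for members already called. It was not counted over all genes and adds no support to the calls.

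Each of these 7 members had its lowest group mean at 8 and 20 weeks in CHOW 20 week libraries. For Atp5k the CHOW 8 week libraries held 209, 179, 223 and 169 TPM, so CHOW 20 week replicate 1, at 174 TPM, was the one library of its group above the lowest of them. Atp5k at 20 weeks on CHOW was lower than at 8 weeks by a difference of -0.43 ± 0.17 (SE), which did not pass the threshold (limma adjusted p = 0.27).

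**Figure D3:**
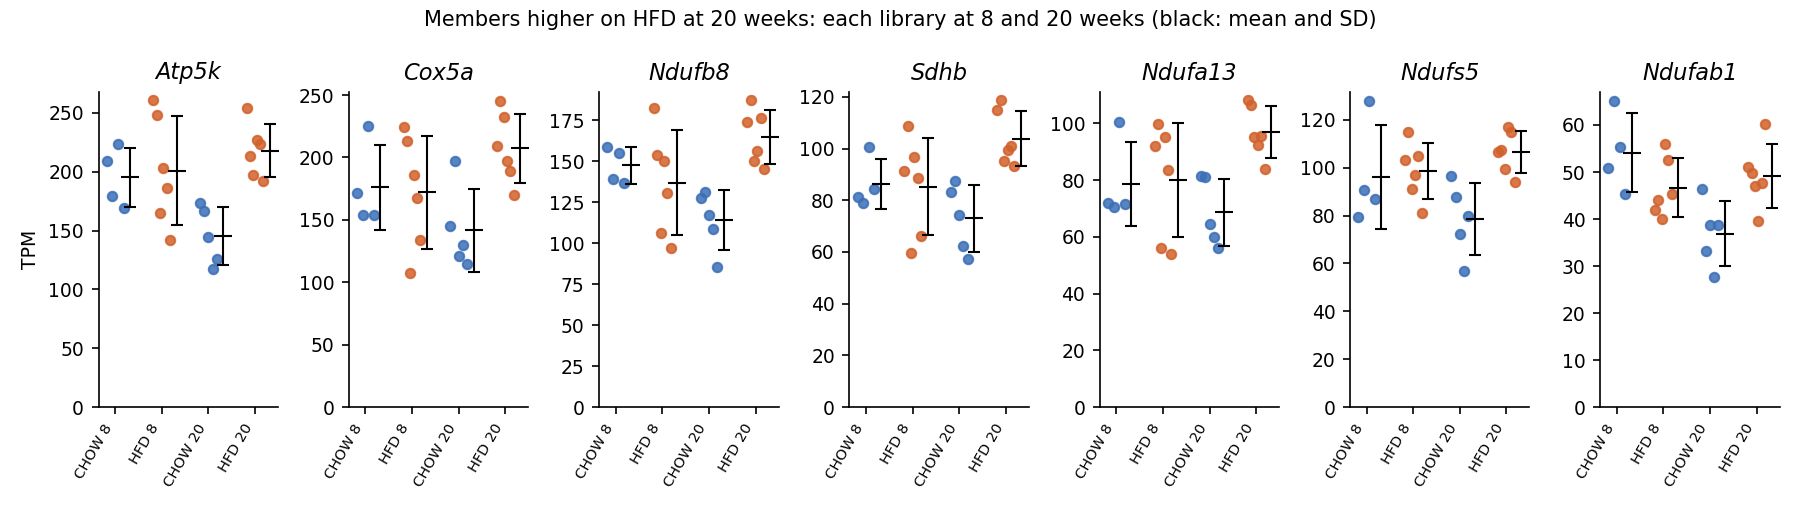
TPM of the 7 members that were called at 20 weeks and have a level above 0 in every library shown, in each library at 8 and 20 weeks, with the mean and SD in black. In every panel the CHOW 20 week libraries have the lowest mean of the 4 groups, and for Atp5k, Ndufb8, Sdhb and Ndufa13 they do not overlap the HFD 20 week libraries. The members are drawn because they were called, and non-overlap was not counted over all genes.

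The number of calls at 20 weeks moved with single libraries. Without HFD 20 week replicate 1, 2 or 5 there were 5, 4 and 5 called members, where 2290, 1944 and 1795 of all genes were called. Without CHOW 20 week replicate 3, 4 or 5 there were 4, 2 and 3, where 1364, 1255 and 1263 of all genes were called. With every library 2405 of all genes were called. Leaving out any other library of these 2 groups gave 6 to 9 called members. In the same comparison 8 of 15 macrophage markers were higher on HFD, with summed levels of 15510 to 26506 TPM against 6818 to 16782 TPM on CHOW, and none of the 15 was at 0 in any library. Of 20 adipocyte markers 9 were lower and 2 higher, with sums of 6082 to 8539 TPM on HFD and 7115 to 10226 TPM on CHOW. All 7 mesothelial markers and all 4 globin genes were lower. Their part in the members' differences was not tested beyond covariates. Fitted with a macrophage covariate, no member was called, where 1.8% of all genes were, against 14.3% without it. The nuclear median was then -0.07 and the mitochondrial median 0.40. Fitted with an adipocyte covariate none was called either, where 0.994% of all genes were, and the medians were 0.14 and 0.30.

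Promoters are shown for 3 nuclear members that hold a motif and, for contrast, Ndufb8, which was called at 20 weeks and holds none of those searched. RefSeq promoters of 300 bases (250 before and 50 after the start, GRCm38.p6) matched 74 of the 93 nuclear members. The motifs of factors known to drive these genes were searched as exact letters on both strands, namely GCGCATGC for NRF1, CCGGAAGT for ETS factors such as GABPA, AAGATGGCG for YY1 and TCAAGGTCA for ERRalpha. The printed motifs are in capitals, with Atp5k at chr5:108434350-108434649 (minus strand), Sdhb at chr4:140961021-140961320 (plus strand), Uqcr11 at chr10:80406772-80407071 (minus strand) and Ndufb8 at chr19:44555393-44555692 (minus strand).
Atp5k: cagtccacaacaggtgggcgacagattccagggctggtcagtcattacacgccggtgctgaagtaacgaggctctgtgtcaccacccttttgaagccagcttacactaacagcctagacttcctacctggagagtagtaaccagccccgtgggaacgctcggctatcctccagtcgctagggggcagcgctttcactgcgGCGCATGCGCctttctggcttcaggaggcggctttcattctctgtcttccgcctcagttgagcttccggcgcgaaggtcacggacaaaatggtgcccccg
Sdhb: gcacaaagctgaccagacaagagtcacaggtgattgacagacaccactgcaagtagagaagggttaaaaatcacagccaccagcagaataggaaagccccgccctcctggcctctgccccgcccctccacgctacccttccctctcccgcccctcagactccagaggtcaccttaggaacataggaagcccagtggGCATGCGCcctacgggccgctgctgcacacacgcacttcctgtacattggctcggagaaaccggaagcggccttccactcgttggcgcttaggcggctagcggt
Uqcr11: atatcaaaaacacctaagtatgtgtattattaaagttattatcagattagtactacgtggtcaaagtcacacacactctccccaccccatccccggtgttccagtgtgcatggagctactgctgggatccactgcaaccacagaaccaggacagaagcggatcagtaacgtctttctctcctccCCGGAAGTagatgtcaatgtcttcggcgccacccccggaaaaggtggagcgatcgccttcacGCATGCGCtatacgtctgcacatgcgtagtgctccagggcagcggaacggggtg
Ndufb8: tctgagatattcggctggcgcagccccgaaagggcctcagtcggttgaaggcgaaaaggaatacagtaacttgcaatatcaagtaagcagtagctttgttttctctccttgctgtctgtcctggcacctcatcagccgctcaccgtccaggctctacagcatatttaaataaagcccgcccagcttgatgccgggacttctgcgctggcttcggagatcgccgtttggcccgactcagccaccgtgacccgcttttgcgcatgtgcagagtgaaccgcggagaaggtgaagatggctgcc
The NRF1 letters start 54 bases before the start in Sdhb. They occur on both strands in Atp5k, as overlapping matches that begin 50 and 48 bases before the start. Uqcr11 holds both the NRF1 and the ETS letters.

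The NRF1 letters were found in 12 of the 74 members with a promoter (16.2%), in 5.19% of other genes tested at 8 and 20 weeks and in 3.05% of all 27025 genes with a promoter. The YY1 letters were in 8 members (10.8%), 3.04% of the other tested genes and 1.64% of all. The ETS letters were in 5 members (6.76%), 7.88% and 4.31%. The ERRalpha letters were in 2 members (2.7%), Atp5g3 and Sdhd, against 0.326% of the other tested genes. In all 26 of the 74 members held at least 1 of the 4. These are matches of letters and not sites of binding.

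Cox8c and Cox7b2, the other 2 members called at 20 weeks, are testis isoforms of complex IV subunits 8 and 7b. Cox8c was listed at 0 in all 5 CHOW libraries at 20 weeks, and at 1.68, 5.31, 22.96, 39.2, 176 and 2.22 TPM in HFD replicates 1 to 6. Cox7b2 was also listed at 0 in all 5 CHOW libraries and at 1.38, 0.729, 5.27, 10.8, 40.6 and 0.609 TPM on HFD. No fold is given against a group listed at 0. The limma adjusted p was 0.0056 for Cox8c and 0.016 for Cox7b2. For both genes the HFD 20 week libraries were enough by themselves to meet the filter of 4 libraries at 1 TPM. They were thus tested because of the group in which they are high, and their calls are not taken as support for a diet difference. HFD replicates 3, 4 and 5 were the 3 highest for both genes.

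The same HFD libraries were the highest for germ cell markers. The 15 germ cell markers outside the chain summed to 2600, 3456 and 14257 TPM in HFD 20 week replicates 3, 4 and 5, and to 153, 285 and 27.6 TPM in replicates 1, 2 and 6. In CHOW 20 week libraries the sums were 276, 84.2, 53.8, 28.6 and 2.29 TPM. Prm1, a protamine of sperm chromatin, was at 3096 TPM in HFD 20 week replicate 5 and at 0 in HFD 20 week replicate 6 and CHOW 20 week replicate 5. Of the 15 markers, 6 were called higher on HFD at 20 weeks. With the germ cell score as a covariate, added after seeing the data, Cox8c was the only member called, where 5.05% of all genes were called. The nuclear median was then 0.21 against 0.25 without the covariate. Without HFD 20 week replicates 3 to 5 and HFD 8 week replicate 3, 2 members were called at 20 weeks, Sdhb and Ndufab1. In that fit 8.77% of all genes were called, and the nuclear median was 0.29.

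Cox6b2, the testis isoform of subunit 6b, was highest in HFD 20 week replicates 4 and 5 among these 6 libraries, and was above 0 in every library. At 20 weeks it was at 7.43, 4.29, 16.02, 14.96 and 14.6 TPM on CHOW and at 5.06, 12.0 and 142 TPM (lowest, median, highest) on HFD. The groups overlapped, and the difference was 0.77 ± 0.63 (SE; limma adjusted p = 0.44). At 34 weeks Cox8c was listed at 0 in all 7 CHOW libraries and was at 76.6 and 68.3 TPM in HFD replicates 1 and 2, whose germ cell sums were 5758 and 6165 TPM, and at 2.33 TPM or less in the other 4. Cox7b2 was at 20.7 and 25.6 TPM in those 2 libraries and at 0.525 TPM or less in the other 4. Neither gene passed the filter at 34 weeks. The part of germ cell RNA in the diet difference of these isoforms was not tested beyond that covariate.

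The common partners of these isoforms were present throughout and far higher. At 8 and 20 weeks Cox6b1 ranged over group means of 241 to 282 TPM, Cox7b over 94.4 to 109 TPM and Cox8a, per library, over 331 to 558 TPM. None of them passed the threshold in any comparison.

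The muscle and brown fat isoforms Cox8b and Cox7a1 stood out at 34 weeks in CHOW libraries. Cox8b was at 99.04, 402 and 137 TPM in CHOW replicates 5, 6 and 7 and at 0.964 to 8.98 TPM in the other 4, and on HFD its lowest, median and highest values were 2.98, 7.28 and 17.02 TPM. These were the 3 libraries with the highest Adipoq. Cox7a1 was at 15.5, 45.4 and 26.1 TPM in them, and at 15.8, 7.08, 11.2 and 0 TPM in the other 4 CHOW libraries. Neither gene passed the threshold, with differences of -1.24 ± 1.15 (SE; limma adjusted p = 0.64) for Cox8b and -0.63 ± 0.66 (SE; limma adjusted p = 0.68) for Cox7a1. Ucp1, the uncoupling protein that defines brown fat, was at 1.96, 9.74 and 1.23 TPM in the same 3 libraries. Of 12 listed brown and beige fat markers, Cox8b and Cox7a1 included, 5 were tested at 34 weeks. Differences were above 0 for 2 of them and below 0 for 3, and none was called. The 3 tested markers outside the chain had a median of 0.77, so no brown fat trait is read from these libraries. Cox6a2, the muscle isoform of subunit 6a, did not exceed 5.39 TPM in any library, while Cox6a1 had group means of 334 TPM or more, and the 12 skeletal muscle markers summed to at most 36.2 TPM.

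**Figure D4:**
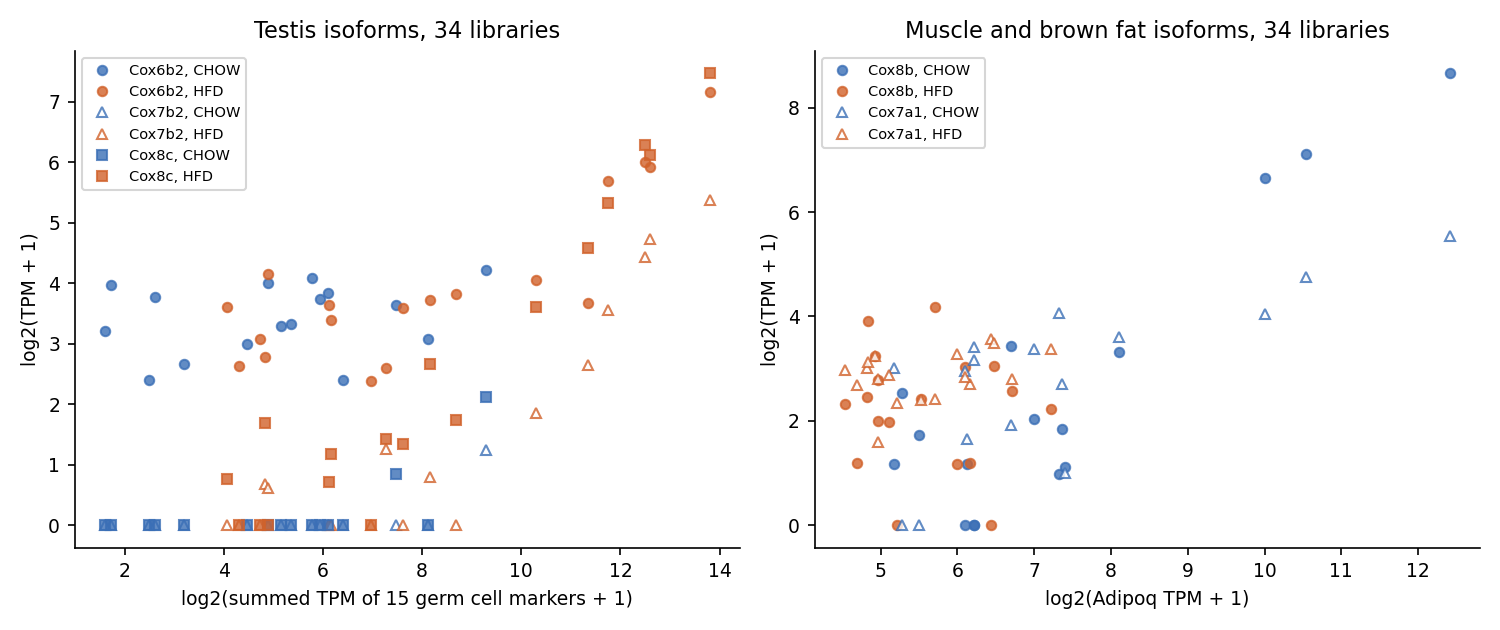
Left, log2(TPM + 1) of the testis isoforms Cox6b2, Cox7b2 and Cox8c against the summed TPM of 15 germ cell markers in 34 libraries. Right, log2(TPM + 1) of Cox8b and Cox7a1 against Adipoq. The highest testis isoform values are HFD libraries with the highest germ cell sums, and the 3 highest Cox8b values are the CHOW libraries with the highest Adipoq.

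Over all members at 34 weeks, none passed the threshold in limma, where 0.243% of all genes did, and 9 passed at an unadjusted p under 0.05 (2 higher and 7 lower on HFD) against a background of 13.2%. The difference was below 0 for 84 of the 91 nuclear members tested, with a median of -0.30, and for 12 of the 13 mitochondrial members, with a median of -0.08, while the median of all genes tested was 0.10. Under median-ratio scaling, which moved the median of all genes by over 0.1 to -0.002, the nuclear median was -0.41 and the mitochondrial median -0.19. By complex the nuclear medians ran from -0.34 in complex IV to -0.25 in complex V, with -0.19 for the assembly factors. Summed adipocyte markers ranged from 5602 to 83089 TPM on CHOW and from 5572 to 9041 TPM on HFD. Of the 20 markers 19 were below 0, with a median of -2.26. In limma 14 were lower at an unadjusted p under 0.05 and 1 was higher, although none was called. Their part in the medians of the members was not tested beyond a covariate. Without CHOW 34 week replicate 6 the nuclear median was -0.15 and the mitochondrial median 0.005, and without replicate 5 the mitochondrial median was 0.03, so no direction is read from the mitochondrial members. Without the libraries rich in adipocyte or germ cell RNA (CHOW 34 week replicates 5 to 7 and HFD 34 week replicates 1 and 2) the nuclear median was -0.11 and the mitochondrial median 0.20. Fitted with a macrophage covariate, they were -0.08 and 0.11. Fitted with an adipocyte covariate, the medians were 0.08 for nuclear and 0.32 for mitochondrial members, so no direction is read from the nuclear members either.

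Ndufab1, called higher on HFD at 20 weeks, was at 56.5, 83.6 and 285 TPM (lowest, median, highest) on CHOW and at 42.4, 67.1 and 77.1 TPM on HFD at 34 weeks. The highest value was CHOW replicate 6, and the difference was -0.71 ± 0.31 (SE; limma adjusted p = 0.34). Atp5b was at 459, 601 and 1834 TPM on CHOW and at 462, 516 and 530 TPM on HFD, with overlapping groups and the highest value again in replicate 6. Cox7a2l, counted here in complex IV, went the other way, with means of 314 ± 43.2 (SD, n = 7) TPM on CHOW and 345 ± 23.7 (SD, n = 6) TPM on HFD and a difference of 0.15, which was not called.

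**Figure D5:**
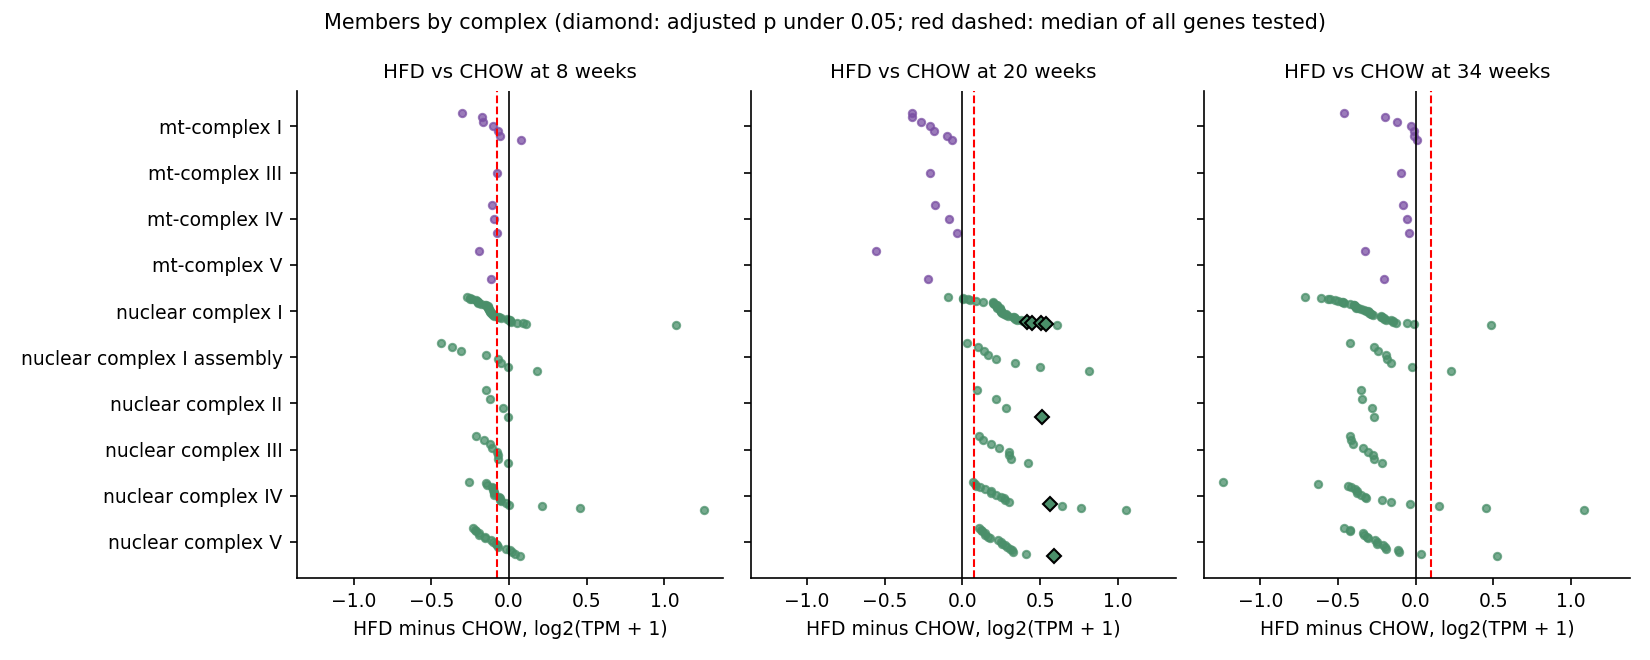
Difference in log2(TPM + 1), HFD minus CHOW, of each member by complex at 8, 20 and 34 weeks, with called members as diamonds and the median of all genes tested as a red dashed line (-0.08, 0.08 and 0.10). At 20 weeks 92 of 93 nuclear members were above 0, a count that includes Cox8c and Cox7b2, and all 13 mitochondrial members were below it. Cox8c and Cox7b2 are not drawn there because CHOW libraries were listed at 0.

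Time on diet was compared between 20 and 8 weeks within each diet. On CHOW no member passed the threshold, where 0.613% of all genes did by limma, and 14 members passed at an unadjusted p under 0.05, all lower at 20 weeks, against a background of 12.5% of all genes and of 7.6% for lower ones. The medians were -0.22 for nuclear and -0.58 for mitochondrial members against -0.09 for all genes. Of 20 adipocyte markers 18 were below 0 in the same comparison and 2 were called lower, Lep and Agpat2, with sums of 4541 to 14659 TPM at 8 weeks and 7115 to 10226 TPM at 20 weeks. Fitted with an adipocyte covariate, the medians were -0.36 for nuclear and -0.07 for mitochondrial members, and the part of adipocyte RNA was not tested further. All 13 mitochondrial members were below 0, from -0.48 for mt-Nd4l to -0.70 for mt-Nd4. mt-Co1 was at 15410, 16395, 13102 and 19198 TPM on CHOW at 8 weeks and at 12386, 9585, 11707, 12353 and 11074 TPM at 20 weeks. The groups did not overlap, yet the difference of -0.48 ± 0.30 (SE) did not pass the threshold (limma adjusted p = 0.55).

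On HFD 2 members were called between 20 and 8 weeks, Cox8c and Cox7b2, both higher at 20 weeks, where 8.78% of all genes were called and 6.12% were called higher. The differences were 2.91 ± 0.82 (SE; limma adjusted p = 0.031) and 2.08 ± 0.60 (SE; limma adjusted p = 0.034). Both genes met the filter on low values through the HFD 20 week libraries, so these calls are not taken as support for a change over time. Cox8c at 8 weeks on HFD was at 0, 0.347 and 11.2 TPM (lowest, median, highest), and Cox7b2 was at 0 in 5 of the 6 libraries and at 2.63 TPM in replicate 4, which also had the highest germ cell sum of its group at 1252 TPM. Without HFD 8 week replicate 1, 3 or 6 or HFD 20 week replicate 3, 4 or 5 no member was called, and without HFD 8 week replicate 5 there was 1. Without HFD 8 week replicate 2 there were 3, all mitochondrial and lower. Without HFD 8 week replicate 4 there were 5, of which 3 were mitochondrial and lower. Over these fits 931 to 1820 of all genes were called, against 1475 with every library.

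At an unadjusted p under 0.05 there were 21 members on HFD, 10 higher and 11 lower, against a background of 27.2% of all genes. Of the 11 lower members 10 were mitochondrial. The mitochondrial median was -0.69, with all 13 below 0, and it was -0.39 without HFD 8 week replicate 3. In this comparison 10 of 20 adipocyte markers and all 4 globin genes were called lower and 8 of 15 macrophage markers higher. Summed macrophage markers ranged from 6807 to 18293 TPM at 8 weeks and from 15510 to 26506 TPM at 20 weeks, and adipocyte markers from 6771 to 11177 TPM and from 6082 to 8539 TPM. The mitochondrial median was -0.12 with an adipocyte covariate and -0.26 with a macrophage covariate, and the part of these cells was not tested further. The nuclear median was 0.12 and turned to -0.13 under quantile normalization and also when TPM were rescaled without the mitochondrial, globin, germ cell and seminal vesicle genes. Under these 2 settings the calls on HFD were 17 members (2 higher and 15 lower, 6 of them mitochondrial) and 14 nuclear members (2 higher and 12 lower), where 16.4% and 20.7% of all genes tested were called, so neither count sets the members apart. mt-Cytb, the mitochondrial subunit of complex III, was at 4190, 5451 and 22332 TPM (lowest, median, highest) at 8 weeks and at 3487, 3841 and 5040 TPM at 20 weeks on HFD. The groups overlapped, and the difference was -0.82 (limma adjusted p = 0.078).

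The difference between diets was also compared between 8 and 20 weeks, as an interaction. No member passed the threshold in limma, where 0.297% of all genes did. At an unadjusted p under 0.05 there were 20 members, all nuclear and all with a larger difference at 20 weeks, against a background of 13.8% of all genes and of 10.4% in that direction. The interaction was above 0 for 91 of 93 nuclear members, with a median of 0.35, and below 0 for 11 of 13 mitochondrial members, with a median of -0.11, against a median of 0.18 for all genes. Scaling moved the median of all genes by over 0.1, to 0.03 under median-ratio scaling, where the nuclear median was 0.18. Of 15 macrophage markers 14 were above 0 in the interaction, with a median of 0.83, and none was called (limma, 7 at an unadjusted p under 0.05). Fitted with a macrophage covariate, the nuclear median was 0.09 and the mitochondrial median 0.38. The mitochondrial median turned to 0.01 under quantile normalization and to 0.23 without HFD 8 week replicate 3. Ndufb8 had an interaction of 0.67 ± 0.21 (SE; limma adjusted p = 0.23).

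The 3 genes of ATP synthase subunit c, Atp5g1, Atp5g2 and Atp5g3, encode the same mature protein of the rotor ring. At 8 and 20 weeks their group means ran from 137 to 168 TPM for Atp5g1, 187 to 248 TPM for Atp5g2 and 251 to 284 TPM for Atp5g3. At 20 weeks the difference between diets was 0.27 for Atp5g1, 0.41 for Atp5g2 and 0.13 for Atp5g3, and none was called. At 34 weeks it was 0.03, -0.12 and -0.46, and none was called.

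Other mitochondrial gene lists were read from the same fit at 20 weeks, in which 9.32% of all genes were called higher on HFD and 4.99% lower. Of 78 genes of the mitochondrial ribosome 12 were higher and 1 lower on HFD, with a median of 0.28. Of 34 genes that assemble the chain 5 were higher (Coa3, Coa4, Coa6, Cox15 and Cox17) and 1 lower (Ttc19), with a median of 0.31. Of 33 genes that copy, transcribe or translate the mitochondrial genome 3 were higher, namely Gfm2, Mterf4 and Mtif3, a share close to that of all genes, with a median of 0.15. Among 13 tested regulators of mitochondrial biogenesis, Esrra, which encodes ERRalpha, was higher by 0.84 ± 0.25 (SE; limma adjusted p = 0.032) and Ppard was lower by -0.65 ± 0.19 (SE; limma adjusted p = 0.030).

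Genes of the fuel pathways that feed the chain are given as counts of calls at 20 weeks. In that comparison 9.32% of all genes were called higher on HFD and 4.99% lower, and no list was tested against these shares. Of 19 genes of fatty acid oxidation 4 were higher on HFD at 20 weeks, namely Acads, Cpt1a, Cpt2 and Hadha, with Hadha, a subunit of the trifunctional protein, at 0.74 ± 0.17 (SE; limma adjusted p = 0.0073). Of 19 genes of the citric acid cycle and pyruvate entry 2 were lower, Pcx at -1.35 ± 0.27 (SE; limma adjusted p = 0.0028) and Pdha1 at -0.40 ± 0.11 (SE; limma adjusted p = 0.019). Of 21 glycolysis genes 3 were higher and 2 lower. The cytosolic ribosome had 2 of 106 tested genes higher, with a median of -0.05.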

How the data were processed

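Polyadenylated RNA of 34 SVF libraries was sequenced as stranded mRNA libraries. The authors quantified the reads with Salmon against GENCODE protein coding and lncRNA transcripts, and the TPM values were used as deposited, in 2 tables of 32098 genes. Tool versions and the strand setting were not given in the sources used here. TPM keep no read depth, so no counting interval can be given. Symbols matched 31791 identifiers.

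The members and lists were chosen with earlier results of these data known. A gene was tested where 4 libraries (8 and 20 weeks) or 6 libraries (34 weeks) reached 1 TPM. log2(TPM + 1) was fitted per table with 1 mean per group in limma 3.58.1 (R 4.3.3) with an intensity trend, and p-values were adjusted over all genes tested. The pseudocount understates changes of low genes. The procedure was tested on simulated data. No library was left out of the values reported, and no columns were unused.

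Named were the mitochondrial genes, isoform sets, subunit c genes, called members with the largest differences (up to 5 in each direction) and the highest and lowest member of each complex. Ndufa13, Ndufs5, Ndufab1, Uqcr11 and non-members were named after their values were seen. Alternatives covered the pseudocount, filter, scaling, groups fitted, sample weights, marker covariates, the replicate number as a block and leaving out libraries.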

Additional observations from a re-analysis of the deposited data

Results flagged for a closer look

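Single libraries that lay far from the rest of their group were found in 16 of 72 sets of group values. The rule flags about 1 in 20 sets where values are independent and normally distributed. These sets are related TPM values, many of them of called genes, so their number is not set against that rate. HFD 8 week replicate 3 stood apart in its mitochondrial share (22.6%) and in its ratio of mitochondrial to nuclear TPM (25.6). CHOW 34 week replicate 5 stood apart in that ratio, at 5.77. The nuclear share stood apart in CHOW 8 week replicate 3, at 1.43%, and in CHOW 34 week replicate 6, at 3.98%.

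CHOW 34 week replicate 6, the library with the highest Adipoq, also stood apart for 5 complex I and II genes, with Ndufa13 at 271 TPM, Ndufab1 at 285 TPM, Ndufb8 at 634 TPM, Ndufs5 at 399 TPM and Sdhb at 406 TPM. Ndufa13 stood apart in CHOW 8 week replicate 3 at 101 TPM.

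The testis isoform Cox7b2 stood apart in CHOW 8 week replicate 3 at 1.38 TPM, HFD 8 week replicate 4 at 2.63 TPM and HFD 20 week replicate 5 at 40.6 TPM. Cox8c stood apart in HFD 8 week replicate 4 at 11.2 TPM and HFD 20 week replicate 5 at 176 TPM. These 3 libraries had the highest germ cell sums of their groups, at 623, 1252 and 14257 TPM.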

How the results depend on the processing

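At 20 weeks 9 members were called (14.3% of all genes called), and the count was 47 with sample weights (30.3%) and 17 with the replicate block (21.4%). It was 2 without the libraries that stand apart by germ cell, seminal vesicle or adipocyte RNA (8.77%). With a germ cell covariate, chosen after seeing the data, it was 1 (5.05%). It was 0 with the adipocyte covariate (0.994%) and with the macrophage covariate (1.8%). Fitted with the macrophage covariate, the difference of Cox5a was -0.0572 (limma adjusted p = 0.853) and that of Ndufa13 -0.0182 (limma adjusted p = 0.958). Between 20 and 8 weeks on CHOW no member was called, against 6 with quantile normalization (1.93% of all genes), 14 with sample weights (9.87%) and 1 without the libraries that stand apart (1.71%). On HFD 2 were called (8.78% of all genes), against 17 with quantile normalization (16.4%) and 3 with the replicate block (11.7%). There was 1 with sample weights (12.3%) and 1 with the macrophage covariate (5.05%). There were 0 without a filter (3.92%), with only the groups compared (5.56%) and without the libraries that stand apart (4.68%). The adipocyte covariate (1.03%) and the germ cell covariate (4.51%) also gave 0. Rescaling without mitochondrial, globin, germ cell and seminal vesicle genes called 10 nuclear members at 20 weeks, 15 over time on CHOW and 14 over time on HFD, where 20.4%, 4.46% and 20.7% of all genes were called. The cause of these changes was not tested. Leaving out 1 library gave 2 to 9 calls at 20 weeks, where 1255 to 3095 of all genes were called. It gave 0 to 5 over time on HFD, where 931 to 1820 of all genes were called. In the other comparisons it gave 0 to 0, where 0 to 185 of all genes were called. Nothing in the labels says that replicate numbers pair the samples, and the correlation of deviations was over 0.1 in 2 of 4 same-numbered pairs at 8 weeks (0.026 to 0.21), 1 of 5 at 20 weeks (-0.10 to 0.15) and 3 of 6 at 34 weeks (-0.0097 to 0.21), so the numbers were not taken as pairs. No depth limit can be given for TPM.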
